A study of Arabidopsis thaliana and Arabidopsis lyrata subsp. lyrata with 12 samples.

Results

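The 60 genes described here encode cytosolic ribosomal proteins of Arabidopsis thaliana, and were taken from a given list of gene identifiers among the 32678 genes of the A. thaliana table. In Arabidopsis lyrata, the members were the 51 of 32793 genes whose annotation named a listed A. thaliana gene as orthologue. Of the 60 listed genes, 32 encode proteins of the small subunit, 25 of the large subunit, and 3 of the stalk at which translation factors bind. They fall into 38 families, of which 20 were listed with 2 or more gene copies. 52 listed genes had an A. lyrata gene and 8 had none, and 47 formed one-to-one pairs between the species. All 60 A. thaliana genes and all 51 A. lyrata genes passed the filter on low counts. The lowest count of any member in any library was 9 reads in A. lyrata and 51 reads in A. thaliana.

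RNA-seq was performed on rosette leaves of the MN47 accession of A. lyrata and of A. thaliana Col-0, with 2 libraries per condition and species and 12 libraries in all. The heat stress (HS) plants were sampled after 6 h at 37 °C, the recovery plants after the same HS followed by 48 h under the conditions of the controls, and the control plants were not heated. The sources used here do not say whether the 2 libraries of a group came from separate cultivations, so the p-values measure the spread between these libraries, which may be technical. Recovery plants were also older than the controls, and recovery and growth cannot be told apart.

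The cytosolic ribosome translates the messenger RNAs of the nuclear genome. It consists of a small subunit, which decodes the message, and a large subunit, which joins the amino acids. In plants each ribosomal protein is encoded by a small family of similar genes, most of which are transcribed in growing tissue, and their transcription is known to follow growth and the TOR kinase pathway. A pair of short promoter motifs, the telo-box and the site II element, are known from many plant ribosomal protein genes.

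Libraries held 8246880 to 45254555 gene reads. Levels are given as CPM, read counts scaled to a common library size by TMM (trimmed mean of M values). Leaf marker genes summed to at least 20804 CPM in every library. The 3 in A. lyrata summed to 20804 and 24742 CPM in HS, against 28015 and 28870 in controls, with 2 called lower and 1 higher. The 5 in A. thaliana summed to 74754 and 80105 CPM in HS, against 45939 and 60063 in controls, with 3 called higher and 0 lower. From controls to HS these TMM-scaled sums moved in the same direction as the members in both species. Between the A. thaliana controls they did not. Replicate 2 had the higher leaf sum, whereas all 60 members were lower in it. Leaf sums with library totals are not given here, and the part of the leaf markers in the results was not tested. In contrast, the 5 root markers were together at 0 to 0.718 CPM, and none of them had enough reads to be tested. The 4 flower markers summed to 0.373 to 1.05 CPM in A. lyrata. In A. thaliana they summed to 7.90 and 8.59 CPM in HS, against 1.75 and 1.22 in controls. The 3 heat shock genes (HSP101, HSFA2 and HSP18.2) summed to 14125 and 11321 CPM in the A. lyrata HS libraries, against 36.9 and 33.4 in controls. In A. thaliana they summed to 39051 and 39684 CPM in HS, against 54.9 and 8.62 in controls, so the HS libraries matched their labels in both species.

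The members took opposite courses in the 2 species. In A. lyrata the members took up 0.602% and 0.677% of all gene reads in HS, against 1.09% and 1.05% in controls, and 1.33% and 1.3% in recovery. In A. thaliana they took up 2.14% and 2.14% in HS, against 1.5% and 0.951% in controls, and 1.5% and 1.56% in recovery. HS libraries therefore lay below both controls in A. lyrata and above both controls in A. thaliana. The 145 other cytosolic ribosomal protein genes of A. thaliana, which were not among the listed ones, followed the same course with 2.5% and 2.5% of reads in HS against 2.21% and 1.17% in controls. With 2 libraries against 2, the smallest two-sided p of an exact permutation test is 0.333, so these shares were not tested.

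**Figure D1:**
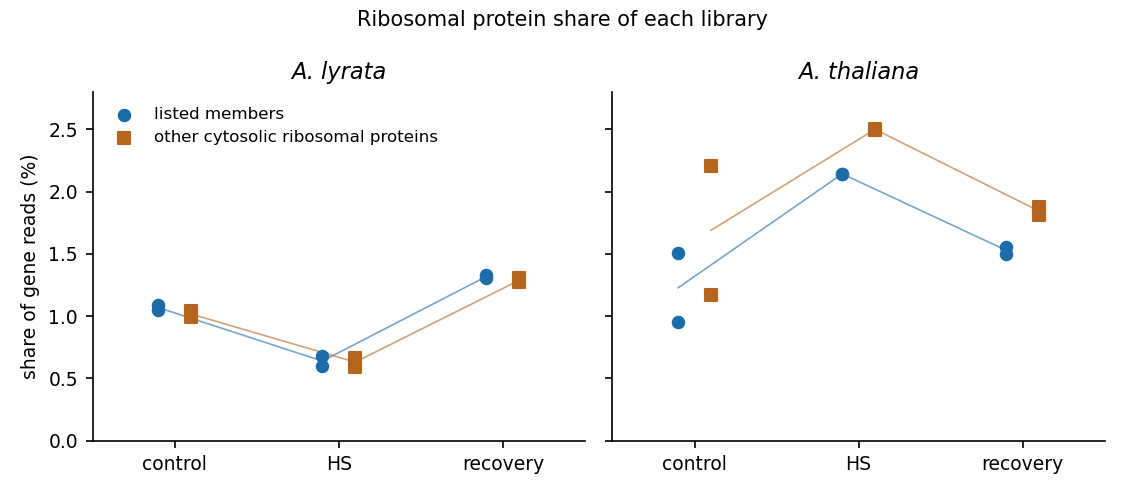
Share of all gene reads (y axis, percent) held by the listed members (circles) and by the other cytosolic ribosomal protein genes (squares) in each library, by condition (x axis), with A. lyrata on the left and A. thaliana on the right. Lines join the means of the 2 libraries. In A. lyrata the HS libraries hold 0.602% and 0.677% for the members, the lowest values, and in A. thaliana 2.14%, the highest.

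After 6 h of HS, 37 of the 51 A. lyrata members had lower transcript levels than controls and 7 had higher levels (edgeR quasi-likelihood test, adjusted p below 0.05), against 38.7% lower and 37.9% higher among all 20779 genes tested. The median log2 fold change of the members was -0.61, with a range of -2.12 to 0.89, against -0.01 over all genes tested. HS libraries lay below both controls for 37 members and above both for 8. The share of all genes that lay so is not given here, so these counts are a description only. Of the small subunit genes 16 of 25 fell and 6 rose. Of the large subunit genes 18 of 23 fell and 1 rose, and all 3 stalk genes fell. With library totals the median of all A. lyrata genes moved to -0.25, and 40 members were lower and 4 higher. The shares of all A. lyrata genes called with library totals are not given here. Leaving out any one library gave 34 to 37 lower and 6 to 10 higher. The 8 dividing cell markers, of which 7 were tested and all 7 were lower, summed to 14.4 and 12.0 CPM in HS, against 76.0 and 72.8 in controls, and their part in the result was not tested. In bulk leaf RNA a change per cell and a change in the kinds of cells present cannot be told apart.

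The deepest decreases were near 4-fold. AL1G25870, a gene for RPL10, a large subunit protein, was at 83.8 and 94.8 CPM in HS, against 392 and 387 in controls, a log2 fold change of -2.12 ± 0.10 (edgeR adjusted p = 2.8e-12). AL3G14870, a gene for RPS3a (A. lyrata v1.0, scaffold 3, 1684164 to 1686395, plus strand), was at 78.4 and 83.6 CPM in HS, against 349 and 349 in controls (-2.10 ± 0.10). AL2G30480, for RPSa, a protein of the small subunit, was at 77.4 and 87.6 CPM in HS, against 343 and 310.3 in controls (-1.98 ± 0.10). In these genes the spread between libraries of a group was small beside the difference.

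AL3G20000, for the stalk protein RPP0, was at 152 and 159.9 CPM in HS, against 580.1 and 561 in controls (-1.87 ± 0.10). AL7G26720, for RPS10, was at 11.0 and 13 CPM in HS, against 42.8 and 41.5 in controls (-1.77 ± 0.11). The second RPP0 gene, AL3G22430, and the RPP1 gene, AL8G10210, fell by 1.43 and 0.99 on the log2 scale. The single A. lyrata member for RPS6, AL9U11080, was at 158 and 178 CPM in HS, against 227 and 219.5 in controls (-0.41 ± 0.09).

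The 5 largest increases in A. lyrata stood out against this. AL7G16310, the second RPS3a gene (scaffold 7, 2679228 to 2681007, minus strand), was at 315 and 366 CPM in HS, against 193 and 175 in controls, a log2 fold change of 0.89 ± 0.10 (edgeR adjusted p = 3.1e-07). AL7G48990 (RPS9) was at 6.56 and 4.98 CPM in HS, against 3.28 and 3.16 in controls (0.77 ± 0.21), and is a copy of very low level. AL4G31090 (RPS14) was at 169 and 203 CPM in HS, against 126 and 106 in controls (0.69 ± 0.10). AL1G39920 (RPL17) and AL3G11300 (RPS19) had log2 fold changes of 0.42 ± 0.09 and 0.41 ± 0.10. All 5 kept a positive sign with library totals, where they were at 0.17 to 0.66, but AL3G11300 no longer passed the test (edgeR adjusted p = 0.077) and AL1G39920 passed at 0.049.

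Members among the most abundant per length in A. lyrata controls differed in their decrease. AL3G20000 (RPP0), at a mean of 481 RPKM (CPM per kilobase of transcript), fell as given above. AL1G13790 (RPS15) and AL5G10210 (RPL7), at 387 and 373 RPKM, fell by 0.35 and 0.61 on the log2 scale. AL6G25590 (RPS9), at 448 RPKM in controls and at 341 and 405 CPM in HS against 417 and 355 in controls, overlapped between the groups and did not pass the test (edgeR adjusted p = 0.72), though with library totals it was called lower at -0.27.

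The A. thaliana controls differed from each other. All 60 members were lower in control replicate 2 than in control replicate 1, by a median ratio of 0.701, whereas the median ratio of replicate 2 to replicate 1 was 1.05 in both the HS and the recovery libraries. Dividing cell markers moved the same way, with 59.7 and 26.6 CPM in controls 1 and 2, and so did the heat shock genes given above. In HS the 8 dividing cell markers summed to 46.5 and 48.6 CPM, but they went both ways, with 2 called higher and 3 lower against controls. The part of either in the difference was not tested. Each A. thaliana comparison with controls is therefore also given without one or the other control where the result moves.

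In A. thaliana the course was the reverse. After HS, 53 of the 60 members were higher than controls and 0 were lower in the same test. Among all 18536 genes tested, 34.9% were higher and 39.5% lower. The median log2 fold change of the members was 1.42, with a range of -0.01 to 2.55, against -0.12 over all genes tested. The HS libraries lay above both controls for 56 members, a description only, since the share of all genes that lay so is not given here. The increase was spread over both subunits, with 30 of 32 small subunit genes and 21 of 25 large subunit genes called higher, and medians of 1.42 and 1.39. Leaving out either control gave 60 or 54 members called higher. Leaving out any other library gave 47 to 51.

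Scaling decides how large this increase was. TMM scaling assumes that most genes do not change, and its factors were 0.710 and 0.672 in the HS libraries against 1.20 and 1.12 in controls. With library totals in its place, the median of all A. thaliana genes moved to -0.87, the median of the members was 0.67, and 34 members were called higher against 18.4% of all genes. Against 59.9% of all genes, 2 members were then called lower. These were AT3G55280, a copy of RPL23a at -0.76, and AT3G11250, a copy of RPP0 at -0.50, which under TMM were at -0.01 and 0.25 and passed no test. Among the genes named here AT3G04840 (RPS3a), AT1G18540 (RPL6), AT4G31700 (RPS6), AT1G14320 (RPL10), AT1G58380 (RPS2) and AT1G48830 (RPS7) then passed no test, at 0.04, 0.08, 0.17, 0.16, 0.02 and 0.05, and AT5G39850 (RPS9), at -0.22, also turned its sign.

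The largest increase was that of AT4G34670, a gene for RPS3a, a small subunit protein (TAIR10, chromosome 4, 16548618 to 16550453, plus strand). It reached 851 and 910.0 CPM in HS, against 168 and 132 in controls, a log2 fold change of 2.55 ± 0.15 (SE, n = 2 libraries each, edgeR adjusted p = 4.2e-06). Recovery libraries were at 193 and 212 CPM, so the level had returned near that of controls 48 h later. AT5G35530, for RPS3, which lines the entry of the messenger RNA channel, was at 634 and 644 CPM in HS, against 128 and 91.5 in controls (log2 fold change 2.54 ± 0.17).

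AT1G43170 encodes RPL3, a large subunit protein that reaches toward the site of peptide bond formation. It rose to 1863 and 1874 CPM in HS, against 369 and 294 in controls, a log2 fold change of 2.5 ± 0.16 (edgeR adjusted p = 5.0e-06). AT2G41840, for RPS2, was at 1291 and 1458 CPM in HS, against 348 and 229.5 in controls (2.25 ± 0.21). In each of these genes the HS libraries lay far above both controls. With library totals the log2 fold changes of these and the preceding genes were 1.5 to 1.80.

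Per length of transcript, AT1G02780 (RPL19), AT5G15200 (RPS9), AT1G14320 (RPL10) and AT3G25520 (RPL5) were among the most abundant members in A. thaliana controls, at mean levels of 355, 351, 318 and 262 RPKM. The least abundant member was at 5.37 and the median member at 157. In HS the first of these, RPL19, averaged 928 RPKM. All 4 were called higher in HS, with log2 fold changes of 1.39 ± 0.22 for RPL19, 1.72 ± 0.22 for RPS9, 0.91 ± 0.14 for RPL10 and 1.52 ± 0.22 for RPL5.

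Both RPS6 genes, which encode the small subunit protein phosphorylated downstream of TOR, rose. AT5G10360 was at 729 and 797 CPM in HS, against 236 and 192 in controls (log2 fold change 1.84 ± 0.14), and AT4G31700 at 403 and 439 CPM in HS, against 276 and 168 in controls (0.93 ± 0.21). Of the stalk genes, AT3G09200 (RPP0) was at 875 and 888 CPM in HS, against 345 and 290.2 in controls (1.47 ± 0.13). AT1G01100 (RPP1) was at 469.7 and 539 CPM in HS, against 187 and 137 in controls (1.64 ± 0.17). The second RPP0 gene, AT3G11250, at 32.5 and 33.7 CPM in HS against 32.5 and 23.6 in controls, did not pass the test (edgeR adjusted p = 0.20).

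Among the other members that did not pass the test in A. thaliana were both listed RPL12 genes (AT2G37190 and AT3G53430), AT1G26910 (RPL10) and AT3G55280 (RPL23a). Their log2 fold changes lay between -0.01 and 0.81. In both RPL12 genes the HS libraries lay above both controls.

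**Figure D2:**
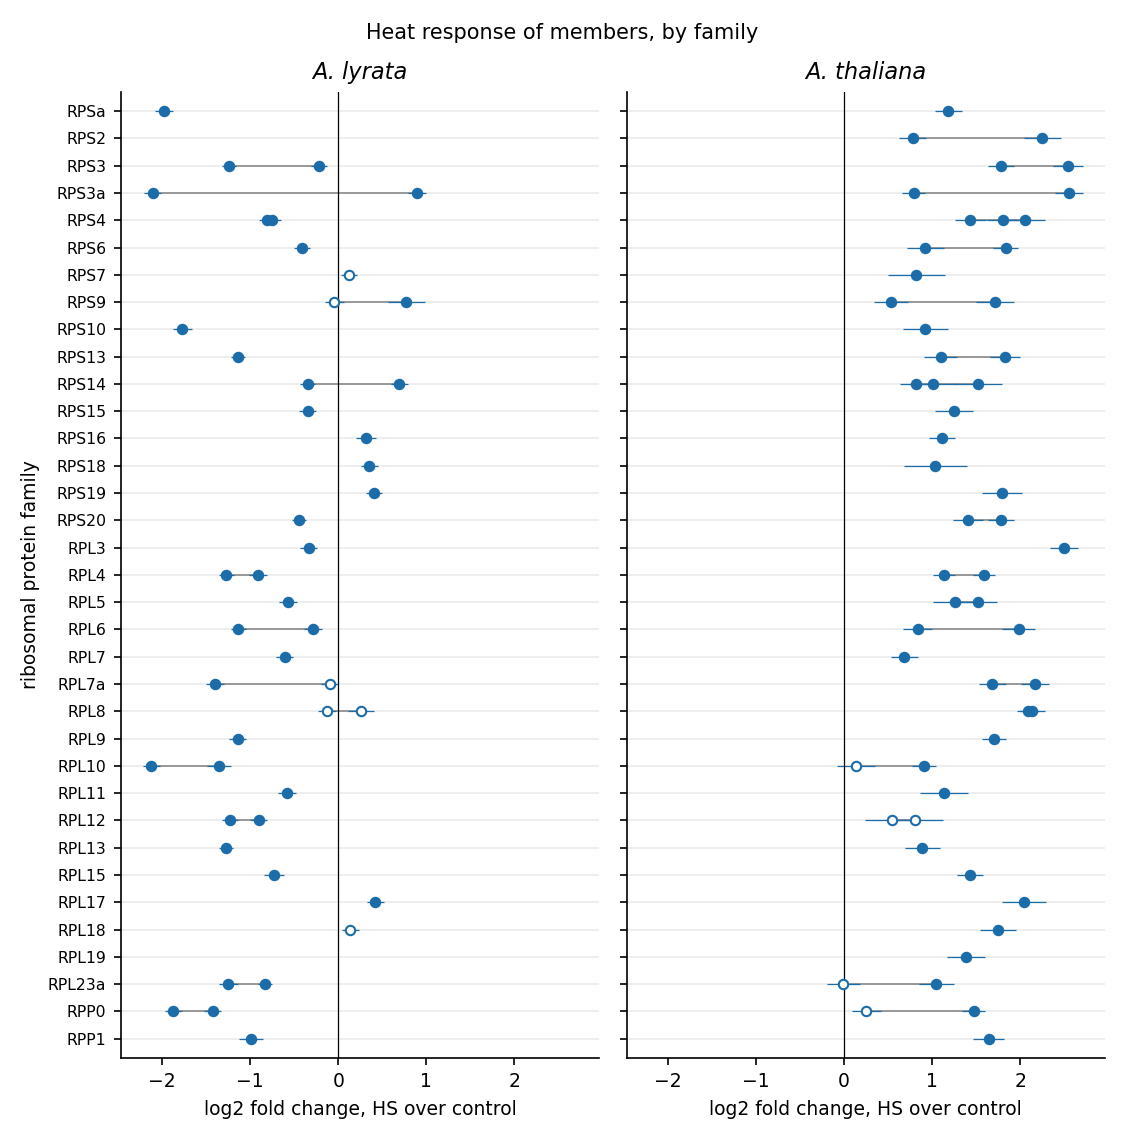
Log2 fold change of HS over control (x axis) for the members of the families shown, by protein family (y axis), with A. lyrata on the left and A. thaliana on the right. Filled points passed the edgeR test, open points did not, bars are SE and grey lines join the listed copies of a family. In A. lyrata the members lie between -2.12 and 0.89, in A. thaliana between -0.01 and 2.55.

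The difference between the species was tested directly on the one-to-one pairs. For 45 of the 47 pairs the log2 fold change in HS was smaller in A. lyrata than in A. thaliana and for 0 it was larger, against 30.6% smaller and 32.0% larger among all 17743 pairs tested (edgeR interaction, adjusted p below 0.05). At an unadjusted p below 0.05 the counts were the same, 45 and 0, and DESeq2 gave 45 and 0. The median difference of the members, A. lyrata minus A. thaliana, was -2.13, against 0.05 over all pairs. With library totals 41 pairs were smaller and 0 larger, and leaving out any one of the 12 libraries gave 44 to 46. The 2 pairs that did not pass were AT1G48830 (RPS7) at -0.67 ± 0.35 and AT5G39850 (RPS9) at 0.28 ± 0.29. These were chosen after their values were seen.

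The widest differences belonged to AT3G09200 (RPP0), at -3.31 ± 0.16 (SE, n = 2 libraries per group, edgeR adjusted p = 1.2e-09), AT1G72370 (RPSa), at -3.13 ± 0.19, AT3G62870 (RPL7a), at -3.05 ± 0.20, and AT1G14320 (RPL10), at -3.0 ± 0.17. For RPSa, the A. lyrata values are those given above for AL2G30480, while AT1G72370 was at 589.9 and 619 CPM in A. thaliana HS, against 303 and 229.6 in its controls. For RPL7a, AL5G44240 was at 81.2 and 95.1 CPM in A. lyrata HS, against 249 and 217 in its controls, while AT3G62870 was at 668 and 729 CPM in A. thaliana HS, against 247 and 188.

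Although nearly all pairs were offset, the order of the genes was partly shared. Across the 47 pairs the HS log2 fold changes in A. lyrata and A. thaliana had a Pearson r of 0.50 and a Spearman rho of 0.56. This is across genes, which are not independent replicates, and pairs of 1 family share sequence. The correlation over all one-to-one pairs is not given here, so a shared order is not shown to be particular to the members. Pairs with a larger increase in A. thaliana tended to have a higher log2 fold change in A. lyrata.

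**Figure D3:**
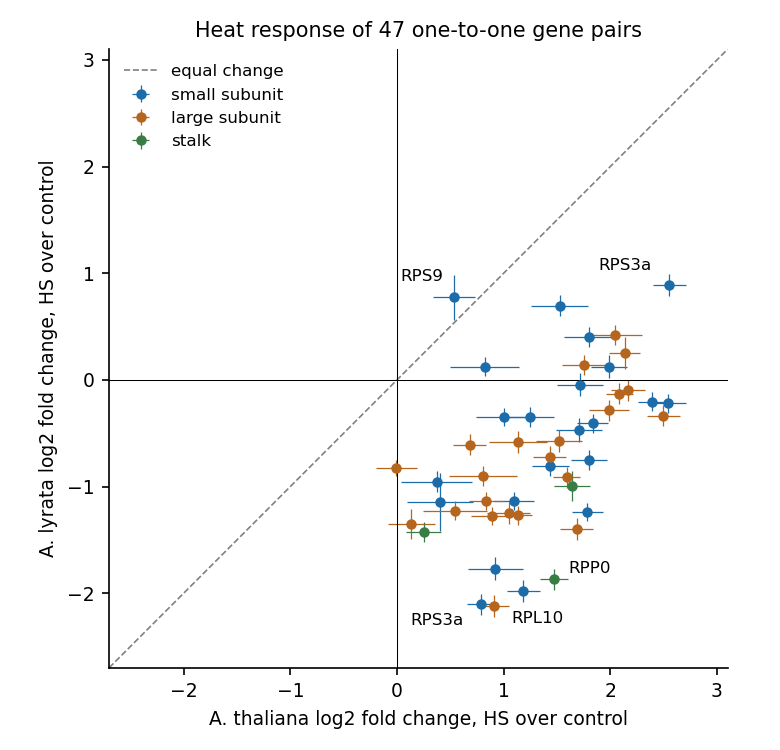
HS over control log2 fold change of the 47 one-to-one pairs in A. lyrata (y axis) against A. thaliana (x axis), coloured by ribosomal part, with SE bars, a dashed line of equal change and the family name of 5 pairs. Only the RPS9 pair with the low-level copy lies above the line, and the 2 RPS3a copies lie near opposite ends of the A. lyrata range.

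Copies of 1 family responded unequally in both species. RPS3a showed the widest spread among copies in A. lyrata (2.99 on the log2 scale) and in A. thaliana (1.76). In A. lyrata AL7G16310, the counterpart of AT4G34670, rose, and AL3G14870, the counterpart of AT3G04840, fell. In A. thaliana AT4G34670 rose far more than AT3G04840 (chromosome 3, 1329665 to 1331617, plus strand), which was at 391 and 392 CPM in HS, against 251 and 202 in controls (0.79 ± 0.13, edgeR adjusted p = 0.00089), and at 0.04 with library totals. AL7G16310 held 80.1% and 81.4% of the reads of both copies in HS, against 35.6% and 33.4% in controls. AT4G34670 held 68.5% and 69.9% in HS, against 40.1% and 39.6% in controls. In recovery the shares were 31.9% and 34.6% for AL7G16310 and 41.8% and 43.7% for AT4G34670, close to controls.

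The coding sequences of the 2 A. thaliana RPS3a genes were 85.2% identical. Their first 90 coding bases (TAIR10.1, AT4G34670 on chromosome 4 and AT3G04840 on chromosome 3, both plus strand) are shown because reads can be assigned to a copy only where the copies differ. Capitals mark the 8 positions that differ.
AT4G34670: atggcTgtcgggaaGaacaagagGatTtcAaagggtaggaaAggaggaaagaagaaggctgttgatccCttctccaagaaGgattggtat
AT3G04840: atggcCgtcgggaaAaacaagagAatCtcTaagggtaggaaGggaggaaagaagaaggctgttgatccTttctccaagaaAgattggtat
No window of 100 bases, the read length, was identical between these transcripts. Among all 60 members 9 shared at least 1 such window with a transcript of another gene, 4 of them in over 10% of their windows. These 4 were AT1G33140 (RPL9, 51.7%, shared with AT1G33120), AT1G18540 (RPL6, 35.9%, with the neighbouring AT1G18530), AT4G36130 (RPL8, 17.3%, with AT4G36140) and AT1G58380 (RPS2, 11.3%, with 3 further genes). The values of AT1G33140 and AT1G58380 are less certain. For AT1G18540 and AT4G36130 the RefSeq gene reached past the deposited gene position, at which no member overlapped another locus. Their shared windows may thus lie outside the counted gene, which was not tested. Since reads were mapped with mismatches allowed, exact windows between copies are a lower bound of what the copies can share.

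RPL7a, RPL6 and RPS3 gave the same order of copies in both species. For RPL7a, AL4G45340 held 78.3% and 76.1% of the reads of both listed copies in A. lyrata HS, against 57.7% and 57.7% in controls. Its A. thaliana counterpart AT2G47610 held 54.1% and 53.2% in HS, against 45.5% and 45.1% in controls. AL4G45340 itself overlapped between the groups, at 293 and 303 CPM in HS against 341 and 297 in controls, while its sister AL5G44240 fell. With library totals AL4G45340 was called lower at -0.32.

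For RPL6, a large subunit protein, AL2G32340 held 37.7% and 38.4% of the reads of both copies in HS, against 27.5% and 23.5% in controls. Its counterpart AT1G74050 held 69.7% and 70.6% in HS, against 52.0% and 50.8% in controls. In A. lyrata AL2G32340 and AL1G30570 fell by 0.28 and 1.14 on the log2 scale. In A. thaliana AT1G74050 was at 629 and 679.9 CPM in HS, against 197 and 134 in controls (1.98 ± 0.19), and AT1G18540 at 273 and 283, against 182 and 129.6 (0.84 ± 0.17).

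For RPS3, AL7G43220 held 76.2% and 78.2% in HS, against 63.7% and 61.5% in controls, and its counterpart AT5G35530 held 57.1% and 56.5% in HS, against 44.7% and 42.6% in controls. AL7G43220 fell by 0.22 and its sister AL4G25770 by 1.24 on the log2 scale. For RPS14, a small subunit protein, AL4G31090 rose as given above while AL3G22720 fell by 0.34 on the log2 scale.

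**Figure D4:**
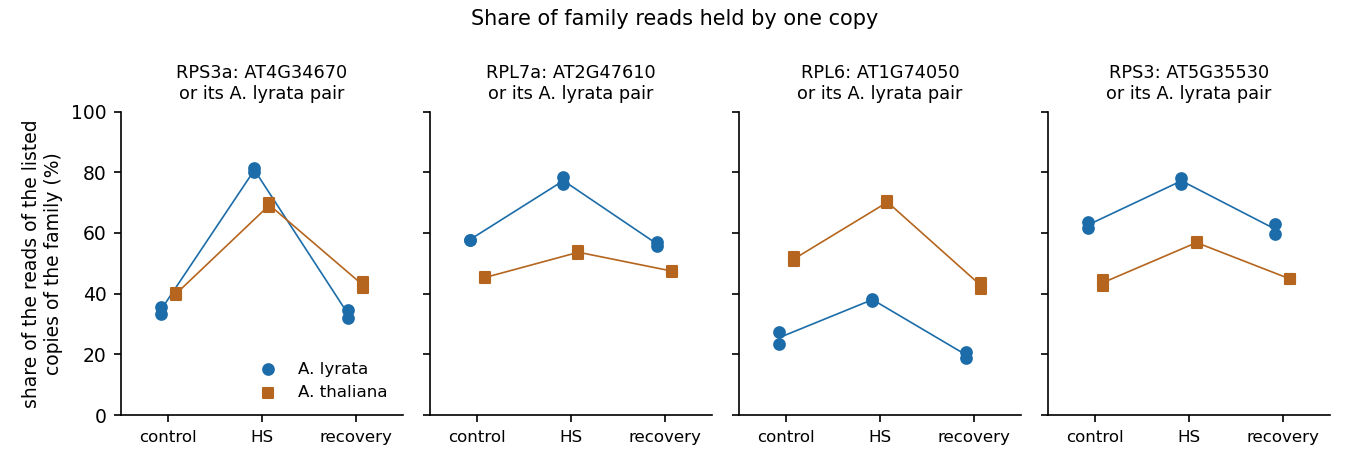
Share of the reads of the listed copies of a family (y axis, percent) held by 1 copy in each library of A. lyrata (circles) and A. thaliana (squares), by condition (x axis), for RPS3a, RPL7a, RPL6 and RPS3. Lines join the means of 2 libraries. The copy shown is the one with the higher HS log2 fold change in both species, so its gain in share from control to HS follows from that choice. In HS the share is 80.1% and 81.4% for RPS3a in A. lyrata and 68.5% and 69.9% in A. thaliana.

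The order of copies matched in some families and not in others. Of 15 families with 2 or more one-to-one pairs, the same copy had the higher log2 fold change in both species in 9. Where the copies were over 0.5 apart on the log2 scale in both species, in 6 families, it was the same copy in 4. The exceptions were RPL10 and RPS9. With 2 paired copies in each family, copies in unrelated order would often match too. These counts were not tested and are no result about a shared order. For RPS9, the low-level copy AL7G48990 rose in A. lyrata, whereas AL6G25590 did not pass the test. AT5G15200 was at 1119.9 and 1198 CPM in A. thaliana HS, against 435 and 271 in controls (1.72 ± 0.22), and AT5G39850 at 16.7 and 15.6, against 13.1 and 9.26 (0.54 ± 0.19, at -0.22 with library totals). For RPP0, AL3G22430, the counterpart of AT3G11250, fell less in A. lyrata, and AT3G09200 led in A. thaliana. The 2 listed genes for RPS2 had no A. lyrata orthologue in the annotation. AT2G41840 held 95.7% and 96.0% of the reads of these 2 genes in HS, against 89.6% and 88.7% in controls. Reads of the further genes that share windows with AT1G58380 are not in this share. AT1G58380 was at 57.7 and 61.0 CPM in HS, against 40.2 and 29.3 (0.78 ± 0.16).

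After 48 h of recovery, 30 of 51 A. lyrata members were higher than in controls and 0 were lower, against 7.65% higher and 4.73% lower among all genes tested. At an unadjusted p below 0.05, 46 were higher and 1 lower, and DESeq2 called 22 higher and 0 lower. The recovery libraries lay above both controls for 47 members, again a description without the share of all genes. The changes were small, with a median log2 fold change of 0.30 and a range of -0.55 to 0.71. The 4 largest among those that passed were AL7G48990 (RPS9), at 5.51 and 5.07 CPM in recovery against 3.28 and 3.16 in controls (0.71 ± 0.21), AL7G36470 (RPL15), at 251 and 271 CPM in recovery against 189.5 and 173 in controls (0.53 ± 0.11), AL8G10210 (RPP1), at 164 and 199.8 against 134 and 124 (0.50 ± 0.13), and AL4G35320 (RPL23a), at 173 and 182 against 128 and 124 (0.50 ± 0.10). Leaving out 1 control or 1 recovery library lowered the count to 1 to 11, the fewest without recovery replicate 2, while the median stayed between 0.27 and 0.35. The dividing cell markers were at 78.7 and 79.4 CPM in recovery, against 76.0 and 72.8 in controls.

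After recovery no A. thaliana member differed from controls by edgeR, where 0 were higher and 0 lower, against 1.34% higher and 0.766% lower among all genes tested. At an unadjusted p below 0.05, 12 members were higher and 0 lower, and DESeq2 called 5 higher and 0 lower. The median log2 fold change was 0.21. The 2 smallest p-values were those of AT4G36130 (RPL8), at 102 and 109 CPM in recovery against 80.0 and 68.5 in controls (0.51 ± 0.12, edgeR adjusted p = 0.075), and AT5G58420 (RPS4), at 123 and 133 CPM in recovery against 95.5 and 66.8 in controls (0.66 ± 0.17, adjusted p = 0.086). This result depended on which control was used. Without control replicate 1 the median log2 fold change of the members was 0.52, against 0.00077 over all genes tested. Without control replicate 2 it was -0.03, against 0.0 over all genes tested. The dividing cell markers were at 105 and 109 CPM in recovery, against 59.7 and 26.6 in controls, and their part in the result was not tested.

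Recovery against HS mirrored the heat comparison, with which it shares the HS libraries. In A. lyrata 40 members were higher in recovery than in HS and 2 lower, against 39.1% higher and 38.3% lower among all genes, with a median log2 fold change of 0.83. The 2 that fell were the 2 genes that led the increases at high level, AL7G16310 (RPS3a), at -0.60 ± 0.10, and AL4G31090 (RPS14), at -0.46 ± 0.10. In A. thaliana 51 members were lower in recovery than in HS and 0 higher, against 34.1% lower and 39.2% higher among all genes tested, with a median of -1.22. With library totals 23 were lower and 5 higher, without the shares of all genes under that scaling, and the median was -0.36. The recovery responses passed no test of a difference between the species for any of the 47 pairs by edgeR, with 0 larger and 0 smaller in A. lyrata, against 5.99% larger and 3.41% smaller among all pairs. At an unadjusted p below 0.05, 2 were larger and 3 smaller, and DESeq2 called 0 and 0. This too depended on the A. thaliana controls, with 23 pairs larger and 0 smaller without control replicate 2, and 0 larger and 10 smaller without control replicate 1.

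Genes of the wider pathway are read against all genes tested in HS, of which 37.9% were higher and 38.7% lower in A. lyrata, and 34.9% were higher and 39.5% lower in A. thaliana. Of the 90 other cytosolic ribosomal protein genes tested in A. lyrata 13 were higher and 62 lower, with a median log2 fold change of -0.55, and of the 138 tested in A. thaliana 112 were higher and 7 lower, with a median of 1.20. Ribosome biogenesis factors, which process and assemble ribosomal RNA, were higher for 21 of 28 genes in A. lyrata and lower for 4 (median 0.89), and higher for 27 of 29 genes in A. thaliana and lower for 0 (median 2.01). Their direction in A. lyrata was thus opposite to that of most members. Translation initiation and elongation factors were higher for 11 of 27 genes in A. lyrata and lower for 9 (median -0.07), shares of 40.7% and 33.3% near those of all genes, and higher for 27 of 31 genes in A. thaliana and lower for 0 (median 1.41). Ribosomal proteins of the plastid, which are nuclear-encoded but serve a separate ribosome, were higher for 2 of 25 genes in A. lyrata and lower for 19 (median -0.82), and higher for 20 of 25 genes in A. thaliana and lower for 0 (median 0.55). All these lists were counted with TMM scaling only. With library totals the median of all A. thaliana genes in HS moved from -0.12 to -0.87. The direction of the plastid genes in A. thaliana may therefore depend on the scaling. Of 9 genes of TOR signalling, 4 were higher and 4 lower in A. lyrata, and 3 were higher and 2 lower in A. thaliana, which is no result about this small list beside the shares of all genes.

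Promoters of the A. thaliana members were searched from 250 bases before to 50 bases after the annotated gene start in TAIR10.1, on both strands. The telo-box (AAACCCT) was present in 32 of 60 member windows (53.3%), against 10.0% of the 27443 protein-coding genes. The site II element (TGGGCC) was present in 40 windows (66.7%), against 15.5% of all genes, and both motifs in 24 (40.0%), against 2.35%. Matches of the 2 motifs can share at most 1 end base. Site II matches were most frequent from 50 to 26 bases before the start, in 25% of member windows, and telo-box matches in the first 25 bases from the start, in 20%. A match is a description of letters, not of binding.

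**Figure D5:**
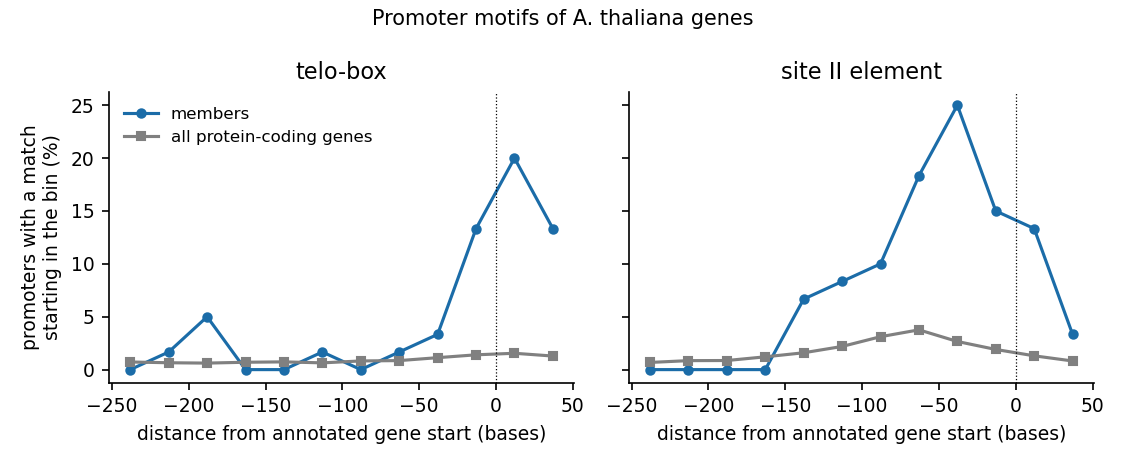
Share of A. thaliana promoter windows (y axis, percent) with a telo-box (left) or site II element (right) match whose first base lies in each bin of 25 bases, by distance from the annotated gene start (x axis, bases), for the members (circles) and all protein-coding genes (squares). Telo-box matches of the members reach 20% just after the start and site II matches 25% before it.

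Responses in HS of members with and without a motif are given as a description, with no test. The median HS log2 fold change in A. thaliana was 1.48 for the 32 members with a telo-box and 1.19 for the 28 without, and 1.43 for the 40 with a site II element and 1.29 for the 20 without, within ranges that overlapped almost fully. Over all protein-coding genes tested, medians were further apart, at 0.37 for the 1702 with a telo-box and -0.17 for the 16372 without, and at 0.41 for the 3592 with a site II element and -0.27 for the 14482 without. The 100 bases before the annotated start are shown for both copies of RPS3a and RPL6, which differ in their response, and for RPS9 (AT5G15200), which carries several matches. For AT1G74050 the RefSeq start used, base 27849008, lies upstream of the deposited start, base 27848806. The bases next to its deposited start were not searched, so its matches may depend on the annotation, which was not tested. The RefSeq and deposited starts of AT3G04840 also differ, at bases 1329571 and 1329665. Capitals mark telo-box and site II matches on either strand (TAIR10.1).
AT4G34670 (RPS3a, chr4:16548500-16548599, plus strand): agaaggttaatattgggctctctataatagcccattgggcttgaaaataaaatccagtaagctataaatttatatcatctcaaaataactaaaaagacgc
AT3G04840 (RPS3a, chr3:1329471-1329570, plus strand): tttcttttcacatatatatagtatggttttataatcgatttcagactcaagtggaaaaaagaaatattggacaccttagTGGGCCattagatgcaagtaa
AT1G74050 (RPL6, chr1:27849009-27849108, minus strand): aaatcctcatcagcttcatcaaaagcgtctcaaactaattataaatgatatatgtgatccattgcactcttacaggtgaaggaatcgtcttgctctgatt
AT1G18540 (RPL6, chr1:6378581-6378680, minus strand): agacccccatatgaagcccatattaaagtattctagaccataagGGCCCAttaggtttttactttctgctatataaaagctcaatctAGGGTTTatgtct
AT5G15200 (RPS9, chr5:4936430-4936529, minus strand): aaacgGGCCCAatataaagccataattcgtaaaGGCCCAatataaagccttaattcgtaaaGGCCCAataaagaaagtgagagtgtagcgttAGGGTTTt
In these 100 bases the copy with the larger HS increase, AT4G34670 for RPS3a and AT1G74050 for RPL6, held 0 matches to the exact letters searched. AT3G04840 held 1 site II element and AT1G18540 held 1 of each motif. The letters TGGGCT, which differ from TGGGCC in the last base, were not searched. They occur, read on either strand, in the printed bases of AT4G34670 and of AT1G18540. A lack of related motifs therefore cannot be read from the 0 matches. The window of AT4G34670 did hold a telo-box after the start. AT5G15200, which rose with a log2 fold change of 1.72, held 3 site II elements and 1 telo-box, so among these members a match went with either kind of response.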

How the data were processed

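RNA-seq of rosette leaves from the 2 species gave 12 libraries, 2 per condition and species. The authors deposited raw read counts per gene: reads of 100 bp, single-end and without strand, were trimmed, mapped by tophat2 (default settings) against TAIR10 or the A. lyrata v1.0 assembly with its version 2 annotation, and counted with Qualimap. How multiply mapped reads were treated for genes is not given in the sources used here. The 12 deposited RPKM columns were not used. Positions and orthologue links came from the deposited annotation. Reads per kilobase were computed here from counts.

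All 6 libraries per species entered 1 fit in edgeR 4.0.16 (R 4.3.3) with TMM scaling, filterByExpr (minimum count 10, minimum total 15), the quasi-likelihood test and Benjamini-Hochberg adjustment over all genes tested, threshold 0.05. Species differences were the interaction on one-to-one pairs. Residual degrees of freedom were 3 per species. Alternatives were library totals, RLE scaling, no filter, 10 reads in every library, DESeq2 1.42.0, only the 2 groups compared, a replicate block and leaving out each library. On simulated counts with only a small share of genes changed, log2 changes of 1 and -1 were recovered for 82.0% and 77.6% of changed genes in A. thaliana HS against control.

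Named genes were the 5 largest increases and decreases in HS, the 5 families with the widest spread of copies, the 5 highest per length in controls, up to 4 per direction in recovery and in the species difference (the 2 smallest p where none passed), RPS6 and the stalk genes. Some genes this rule picks are not reported here. Members and lists were chosen with earlier results of these data known. Promoters and coding sequences were read from the RefSeq TAIR10.1 genome with its own annotation, and coding sequences were aligned with Biopython 1.88.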

Additional observations from a re-analysis of the deposited data

Results flagged for a closer look

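The following results are given because the HS responses of the 2 species differed by the test of the difference itself (edgeR interaction, A. lyrata minus A. thaliana, n = 2 libraries per group). Among all pairs tested, 30.6% were smaller and 32.0% larger in A. lyrata. The log2 fold change was smaller in A. lyrata for 45 of 47 member pairs, for 70 of 83 pairs of other cytosolic ribosomal protein genes (2 were larger), for 22 of 29 ribosome biogenesis genes, for 22 of 27 translation factor genes (1 was larger) and for 23 of 25 plastid ribosomal protein genes. Among the members named for it the difference was -3.31 for AT3G09200 (RPP0), -3.13 for AT1G72370 (RPSa), -3.05 for AT3G62870 (RPL7a) and -3.0 for AT1G14320 (RPL10). The copies of RPS3a differed by -2.86 (AT3G04840) and -1.63 (AT4G34670). Groups of 2 libraries are too small to look for libraries that stand apart within a group.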

How the results depend on the processing

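Most counts below are given without the share of all genes called under the same setting. Counts of members called kept within 1.5 times of those reported under the alternatives run, with these exceptions. With library totals, 34 members were higher and 2 lower in A. thaliana HS against control, 4 were higher in A. lyrata HS against control, 2 were higher in A. thaliana recovery against control, and 5 were higher and 23 lower in A. thaliana recovery against HS. With no filter, 2 were higher in A. thaliana recovery against control, 1 in A. thaliana recovery against HS and 2 pairs were larger in A. lyrata in recovery. With 10 reads in every library, 2 were higher in A. thaliana recovery against HS, and likewise 2 with only the 2 groups compared. DESeq2 called 5 higher in A. thaliana recovery against control. Leaving out 1 library in turn gave ranges of 0 to 1 lower in A. thaliana HS, 0 to 58 higher and 0 to 14 lower in A. thaliana recovery against control, 0 to 2 higher in A. thaliana recovery against HS, 1 to 35 higher in A. lyrata recovery against control, and 0 to 23 larger and 0 to 10 smaller pairs in recovery, the last 2 at 23 without A. thaliana control replicate 2 and 10 without control replicate 1. The cause of these shifts was not tested.

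Among named members, signs turned with library totals for AT3G11250 (-0.50) and AT5G39850 (-0.22) in A. thaliana HS, and in A. thaliana recovery against HS for AT3G04840 (0.33), AT1G58380 (0.40), AT3G11250 (0.82), AT5G39850 (0.18), AT1G18540 (0.49), AT1G14320 (0.14) and AT4G31700 (0.23). In A. thaliana recovery against control they turned for AT5G15200, AT1G74050 and AT1G02780, at 0.36, 0.25 and 0.47 without control replicate 1 and at -0.33, -0.32 and -0.22 without control replicate 2.

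Libraries with the same replicate number did not deviate together (correlations of -0.05 to 0.11), so the numbers do not pair the samples. With the replicate block 54 members were higher and 0 lower in A. thaliana HS, 7 higher and 37 lower in A. lyrata HS, 45 pairs were smaller in A. lyrata in HS, and 1 pair was larger in recovery. In simulated counts of A. thaliana HS against control, log2 changes of 1 and -1 were recovered for 82.0% and 77.6% of genes, and in those of the species difference in HS for 40.8% and 42.6%. Only a small share of genes was changed there, evenly up and down, with the same dispersion for every gene. In the data 34.9% of A. thaliana genes were called higher and 39.5% lower in HS, so these rates may not hold for them. Recovery comparisons were not simulated.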
